A study of Mus musculus with 5 samples.

Results

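The genes described here encode glycolytic isoenzymes whose balance is commonly compared in studies of aerobic glycolysis, together with the glucose transporter gene Slc2a1. They are Hk1 and Hk2 (hexokinases), Pfkp, Pfkl and Pfkm (phosphofructokinases), Aldoa (aldolase A), Pkm (pyruvate kinase of muscle and many other tissues), Ldha and Ldhb (lactate dehydrogenases) and Slc2a1. The members were chosen by name, with earlier results of these data known. All 10 of 10 symbols were found once among the 23997 rows of the deposited table of gene FPKM. FPKM is the number of fragments per kilobase of transcript length, scaled to each library's mapped fragments. RNA of whole kidneys was compared, at a mouse age of 8 weeks, between 3 libraries that the labels call uninduced controls (numbered 0, 1 and 2) and 2 that they call Pkd1 knockouts (numbered 0 and 1). The sample titles name the mutants SKO and the design text names them PkdTKO. The Cre driver, the inducing agent, the time of induction, the strain and the sex are not named in the sources used here. The series concerns metalloproteinases and widening of tubules in polycystic kidney disease. Nothing in the labels says whether each library came from a separate mouse, so p-values measure the spread between these libraries, which may be technical.

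Glycolysis turns glucose into pyruvate, and cells that make lactate from it while oxygen is present are said to show the Warburg effect. Several steps are run by isoenzymes, products of separate genes that catalyse the same reaction with different kinetics and tissue patterns. In the healthy kidney the proximal tubule mostly burns fatty acids and makes glucose, while more distal segments use glycolysis more. Aerobic glycolysis has been described in Pkd1-mutant cells and kidneys, as background to the choice of these genes.

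Several facts of the libraries bear on every value below. Pkd1 itself had control values of 3.22, 3.51 and 3.49 FPKM against 2.72 (knockout 0) and 3.60 (knockout 1), so the whole-gene value does not check the labels. Xist, expressed from the inactive X chromosome of females, was at most 0.0275 in the controls, against 30.8 and 80.3 in knockout 0 and 1, and the Y-linked Ddx3y was at least 17.8 in the controls and at 7.30 and 0.00194. Uty, also Y-linked, was at 6.90 or more in the controls and at 2.95 and 0.000856. Knockout 0 thus held Xist and Y-linked transcripts together, at levels between those of the controls and knockout 1. These genes therefore do not assign knockout 0 to 1 sex, and whether it came from 1 mouse is not known. Sex and genotype cannot be told apart, and the part of sex in the differences between knockout 0 and knockout 1 was not tested. Each control column summed to an FPKM of 504914 to 507053, that of knockout 0 to 493226 and that of knockout 1 to 462814. The deposited values come without depths. In genes with 1 annotated transcript, 72.7% to 80.5% of the lowest values lay within 0.15 of a whole number of equal steps, where an even spread would give 30.0%. If a step is 1 fragment, knockout 0 had a depth of 0.423 times that of knockout 1, and the controls between 0.502 and 0.818 times. The listed markers of distal nephron and collecting duct cells were above 0 in each library (Aqp2 at 248 to 351) apart from Umod, which was listed at 0 in the 3 controls and at 784 and 1144 in knockout 0 and 1, while the proximal tubule markers Slc34a1, Lrp2 and Kap were listed at 0 in all 5, which may be failed estimates. No member was listed at 0.

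The members spanned a wide range of levels, and most neighbours in the order of levels kept it in every library. FPKM is scaled to transcript length, so levels of different genes are set side by side here, with limits. Some genes had possibly failed estimates, and members share up to 34.4% of their 50-base transcript windows with other genes (Pkm), by counting rules that are not given. Mean FPKM over the 5 libraries was 1083 for Ldhb, 633 for Aldoa, 484 for Ldha and 140.4 for Pkm. It was 31.0 for Hk1, 30.7 for Slc2a1, 21.3 for Pfkm, 19.1 for Pfkl and 15.8 for Pfkp, and Hk2 stood far below at 0.384. Neighbours in this order whose ranges over the libraries overlapped were Aldoa and Ldha, Hk1 and Slc2a1, Pfkm and Pfkl, and Pfkl and Pfkp. Hk1 exceeded Slc2a1 in 3 of 5 libraries, and Pfkl exceeded Pfkp in 4 of 5.

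**Figure D1:**
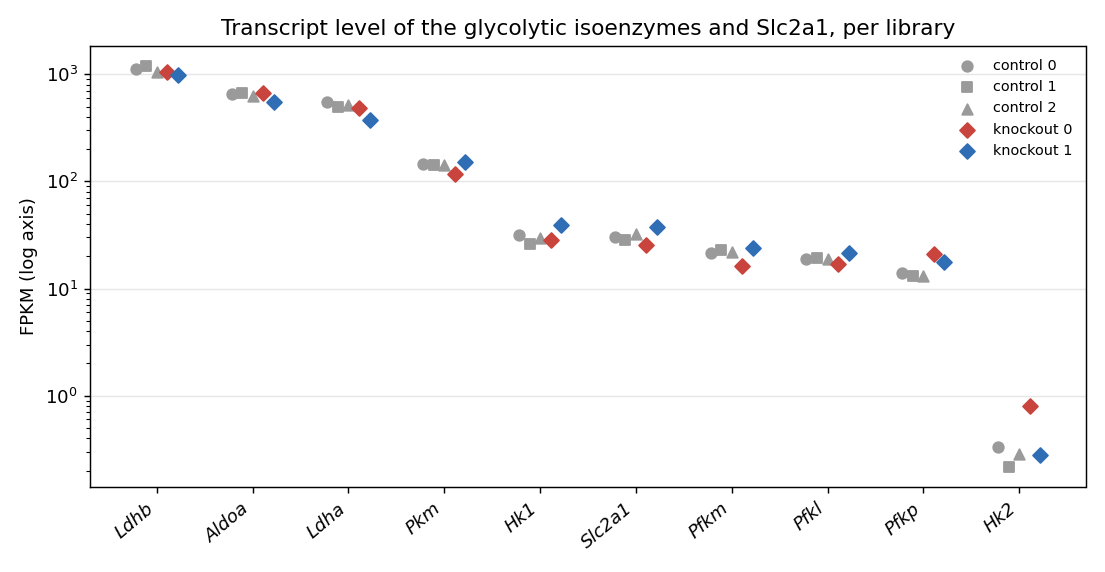
FPKM of the 10 genes on a log axis, 1 point per library (grey, controls; red, knockout 0; blue, knockout 1), ordered by mean level. The 2 lactate dehydrogenases and Aldoa lie far above the other genes in every library, and Hk2 far below them.

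Of the 9 members with a mean FPKM of at least 1, 1 rose, 0 fell and 8 did not pass in the knockout libraries (limma on log2(FPKM + 1), Benjamini-Hochberg adjusted p under 0.05). Over all 12640 tested rows 6.34% were called, 2.73% as higher and 3.62% as lower, so 1 of 9 is a count close to the background. The median log2 difference of the 9 members was -0.11, against -0.02 over all tested rows. The groups did not overlap in 3 of the 10 members, 1 higher and 2 lower, whereas 48.2% of all tested rows showed no overlap (21.9% higher and 26.3% lower). The knockout libraries departed from the controls in different ways. In knockout 0, 2 members lay above every control, 6 below every control and 2 within their range, and in knockout 1 the counts were 6, 3 and 1. For 4 members (Pfkl, Pfkm, Pkm and Slc2a1) knockout 0 lay below every control and knockout 1 above every control.

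**Figure D2:**
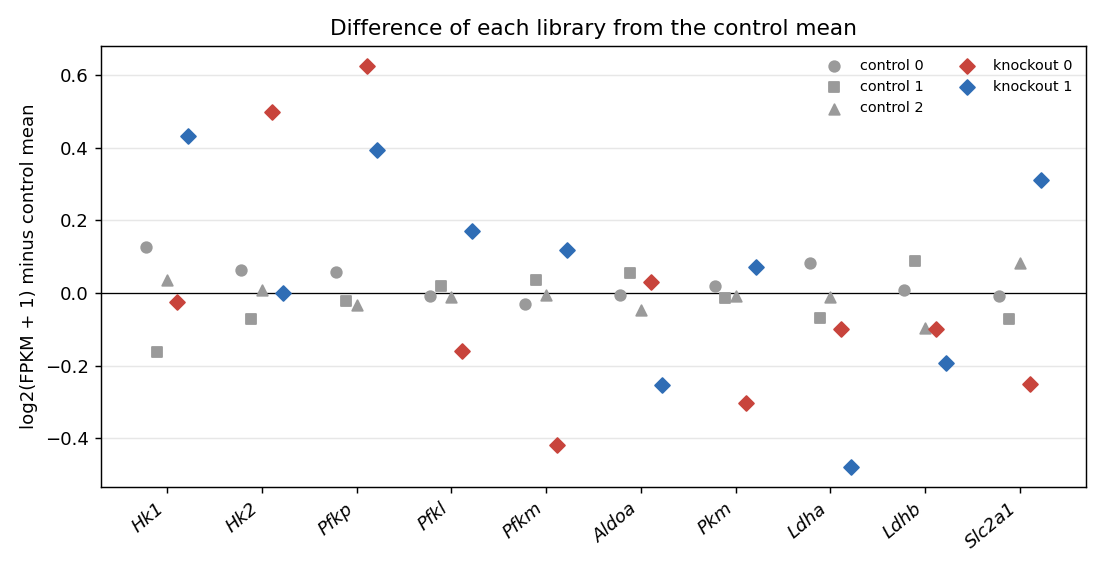
Difference of log2(FPKM + 1) from the control mean for each gene and library (grey, controls; red, knockout 0; blue, knockout 1). Only for Pfkp do both knockout libraries lie above all 3 controls, and for Pfkl, Pfkm, Pkm and Slc2a1 they lie on opposite sides of them.

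Pfkp, the platelet-type phosphofructokinase, was the member that rose. Phosphofructokinase makes fructose 1,6-bisphosphate, the committed step of glycolysis, and the enzyme assembles from the platelet, liver (Pfkl) and muscle (Pfkm) types. The FPKM of Pfkp was 13.9 (control 0), 13.1 (control 1), 13.0 (control 2), 21.1 (knockout 0) and 17.8 (knockout 1). Both knockout libraries were above every control, with knockout 0 the higher. This was a log2 fold change of 0.51 with an SE of 0.0916 and a 95% interval of 0.28 to 0.74 (limma adjusted p = 0.0419). By exact permutation p was 0.1, which is the lowest value that 5 libraries split 3 to 2 can give. The call was lost without control 0, 1 or 2 (adjusted p = 0.149, 0.116 and 0.203) and narrowly without knockout 0 (0.0504) or after median-of-ratios scaling (0.0516), and the limma adjusted p lay between 0.0119 and 0.251 over the alternatives. The log2 difference itself stayed positive in all of 15 alternatives, between 0.39 and 0.62.

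Pfkl was at 18.9, 19.3 and 18.9 in the controls, against 16.9 in knockout 0 and 21.5 in knockout 1. Pfkm was at 21.6, 22.7 and 22.0, 16.3 and 24.1. For both, the spread between the 2 knockout libraries enclosed the narrow range of the controls. The log2 fold changes were 0.01 (SE 0.110, 95% interval -0.27 to 0.28, limma adjusted p = 0.981) and -0.15 (SE 0.161, interval -0.55 to 0.26, adjusted p = 0.582). Without knockout 1 Pfkm was called lower, with a log2 difference of -0.42 (limma adjusted p = 0.0246), and without knockout 0 its difference was 0.12.

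The 3 isoenzymes summed to a similar FPKM in the controls and knockout 0, while their shares differed. The sum was 54.4, 55.0 and 53.9 in the controls, against 54.3 in knockout 0 and 63.4 in knockout 1. Pfkp made up 25.5%, 23.8% and 24.1% of it in the controls, against 38.8% in knockout 0 and 28.1% in knockout 1. Pfkm made up 39.7%, 41.2% and 40.9% in the controls, against 30.0% in knockout 0 and 38.0% in knockout 1, and Pfkl between 31.2% and 35.0% in all 5 libraries. Pfkp thus had the lowest FPKM of the 3 in each control and the highest in knockout 0, whereas in knockout 1 it stayed the lowest.

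**Figure D3:**
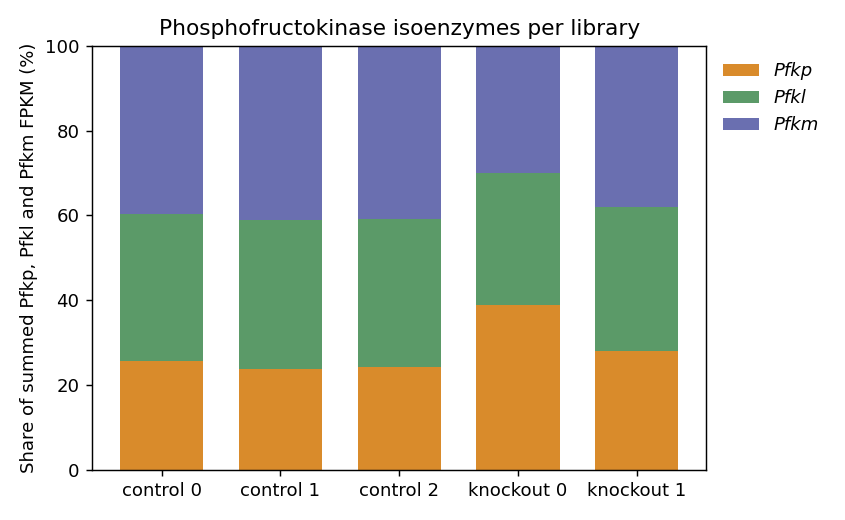
Share of Pfkp, Pfkl and Pfkm in their summed FPKM for each library, as stacked bars from 0 to 100%. The Pfkp share is 23.8% to 25.5% in the controls, against 38.8% in knockout 0 and 28.1% in knockout 1.

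Promoter windows of Pfkp and Pfkl are printed because, of these isoenzymes of the same step, Pfkp passed the test and Pfkl did not. Each is a RefSeq window on GRCm38.p6 (mm10), from 250 bases before to 50 bases after the annotated start, 5′ to 3′ on the gene's strand. Capitals mark ACGTG and GCGTG, the cores of the hypoxia response element, on either strand (CACGT and CACGC on the other). The Pfkp window is chr13:6648722-6649021 and the Pfkl window chr10:78009758-78010057, both on the minus strand.
Pfkp: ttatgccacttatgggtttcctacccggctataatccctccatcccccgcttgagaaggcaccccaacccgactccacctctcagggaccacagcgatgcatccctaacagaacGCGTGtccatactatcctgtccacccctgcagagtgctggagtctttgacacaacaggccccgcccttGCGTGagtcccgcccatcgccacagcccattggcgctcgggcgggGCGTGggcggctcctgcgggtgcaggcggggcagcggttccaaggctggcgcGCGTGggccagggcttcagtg
Pfkl: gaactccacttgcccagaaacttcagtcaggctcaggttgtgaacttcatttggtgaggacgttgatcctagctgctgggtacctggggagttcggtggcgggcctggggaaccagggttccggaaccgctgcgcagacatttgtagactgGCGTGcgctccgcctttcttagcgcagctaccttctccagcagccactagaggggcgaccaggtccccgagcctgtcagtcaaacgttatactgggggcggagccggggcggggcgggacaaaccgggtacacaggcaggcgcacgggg
The Pfkp window held GCGTG 4 times and the Pfkl window held 1 match, and the other core was in neither. Of all 32851 windows of the same length, 32.4% held GCGTG and 19.6% held ACGTG. The GC box GGGCGG, searched on both strands and found in 35.7% of all windows, occurred 4 times in Pfkp and 3 times in Pfkl. The GC content of these windows was 64.7% and 62.3%, above the median of 52.7%. Pfkm has 4 windows in the table, with a GC content of 36.7% to 59.0%. All 10 members had at least 1 window, 18 in all, of which some overlap, and 14 of the 18 (77.8%) held ACGTG or GCGTG, against 43.8% of all windows. These are matches of letters, not sites shown to be bound.

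Annotation limits the Pfkp value. Pfkp (ENSMUSG00000021196.14) spans 6579768 to 6648777 on mm10 chromosome 13, on the minus strand in GENCODE M21. Its 3′ end overlaps the opposite-strand gene Pitrm1, with 748 exon bases in common, and 17.1% of the 50-base windows of its longest protein-coding transcript also occur in Pitrm1 transcripts. The strandedness of the counting is not given, so fragments from the overlap cannot be assigned by strand here. Pitrm1 was at 17.0, 17.9 and 17.3 in the controls, against 19.3 in knockout 0 and 24.9 in knockout 1 (limma adjusted p = 0.149). Both knockout libraries were above every control, as for Pfkp and for 21.9% of all tested rows. Pitrm1 was higher in knockout 1 than in knockout 0, whereas Pfkp was higher in knockout 0. The part of Pitrm1 in the Pfkp value was not tested. Pfkl (ENSMUSG00000020277.10) spans 77986947 to 78010083 on chromosome 10 (minus strand), and Pfkm (ENSMUSG00000033065.14) 98092589 to 98132451 on chromosome 15 (plus strand). No 50-base window was shared between any of the 10 members, so isoenzymes of 1 step were distinguishable at that length.

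The tested rows whose pattern lay closest to that of Pfkp, by the Euclidean distance of log2(FPKM + 1) from the control mean over the 5 libraries, were Anpep, Akna and Samhd1. Their distances were 0.037, 0.0679 and 0.07 among 11873 rows compared. Akna was at 0.931, 0.751 and 0.834 in the controls, against 1.85 and 1.36 in knockout 0 and 1. Its controls were all below the filter of a mean FPKM of 1, so Akna entered only through the knockout libraries, and its match supports nothing. Anpep, an aminopeptidase of the proximal tubule brush border, was at 66.4, 64.0 and 64.0 in the controls, against 100.5 and 83.9 in knockout 0 and 1. Samhd1, a nucleotide triphosphate hydrolase, was at 7.89, 7.68 and 7.92 and at 12.6 and 10.7.

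Immune and injury markers were compared between the libraries too. Of the 6 macrophage, 3 lymphocyte and 4 tubule injury markers tested, 0 passed (limma), with 2, 2 and 1 higher and 0 lower at an unadjusted p under 0.05. Such an unadjusted p, in either direction, was found in 29.1% of all tested rows. Cd3e, counted among the higher lymphocyte markers, had a control mean of 0.66, below the filter of a mean FPKM of 1. So did Nkg7 (0.968), Krt20 (0.472) and Havcr1 (0.937). All of these entered the test only through the knockout libraries, so their results support nothing. All 6 macrophage markers in the table (of 7 listed) and all 6 lymphocyte markers were above every control in both knockout libraries, as were 21.9% of all tested rows. The macrophage markers summed to an FPKM of 260 to 298 in the controls, against 1304 in knockout 0 and 347 in knockout 1, and the lymphocyte markers to 4.56 to 5.32, 14.5 and 7.24. None of these 12 was at 0. The 5 tubule injury markers summed to 9.15 to 11.9 in the controls, against 309 in knockout 0 and 12.1 in knockout 1. Of these, Havcr1 (KIM-1) was at 0.593 in knockout 1, below every control, and Lcn2 (NGAL) at 4.87, within the controls. The other 3, Vcam1, Krt20 and Sox9, were above every control in both knockout libraries. In knockout 1 they were at 5.42, 0.808 and 0.373, against at most 3.04, 0.725 and 0.301 in the controls. The part of these markers in the Pfkp value was not tested. In whole-kidney RNA, fewer cells of a type and less RNA per cell cannot be told apart.

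Hk1, the hexokinase of most tissues, traps glucose as glucose 6-phosphate. Its FPKM was 31.7, 25.8 and 29.7 in the controls, against 28.5 in knockout 0 and 39.4 in knockout 1. Knockout 0 lay within the controls and knockout 1 above them. The fitted difference was 0.20 on the log2 scale (SE 0.162, 95% interval from -0.20 to 0.61, limma adjusted p = 0.448), and without knockout 1 it was -0.024. Hk1 (ENSMUSG00000037012.18) spans 62268855 to 62379908 on mm10 chromosome 10 (minus strand).

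Hk2, the inducible hexokinase of muscle, fat and many tumours, had the lowest level of the 10 members. By mean FPKM it ranked 14064 among the 23997 rows. Its FPKM was 0.335, 0.216 and 0.284 in the controls, against 0.804 in knockout 0 and 0.278 in knockout 1. Knockout 0 thus stood at 289% of the control mean and knockout 1 at 99.9%, inside the control range. With its mean of 0.384 Hk2 did not enter the main test. The exact permutation p was 0.3, and with no filter on low values limma gave a log2 fold change of 0.25 (SE 0.171, adjusted p = 0.519 over 23997 rows). The Hk2 values amount to roughly 164 to 391 of the steps described above in each library, and whether a step is 1 fragment is not known. Hk2 (ENSMUSG00000000628.10) spans 82725025 to 82774454 on chromosome 6 (minus strand).

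Hk1 supplied most of the summed FPKM of Hk1, Hk2, Hk3 and Hkdc1 in every library. It made up 95.7% to 96.0% in the controls, against 89.5% in knockout 0 and 94.6% in knockout 1. The Hk2 share was 0.805% to 1.01% in the controls, against 2.53% in knockout 0 and 0.667% in knockout 1. Hkdc1, a hexokinase domain protein with low activity, made up 2.35% to 2.51% in the controls, against 5.69% in knockout 0 and 3.95% in knockout 1.

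Slc2a1 encodes GLUT1, the basal glucose transporter. Its FPKM was 30.0, 28.7 and 32.0 in the controls, against 25.2 in knockout 0 and 37.7 in knockout 1, so the knockout libraries lay on opposite sides of the controls. The fitted difference was 0.03 on the log2 scale (SE 0.172, 95% interval from -0.40 to 0.46, limma adjusted p = 0.93). Slc2a1 (ENSMUSG00000028645.11) spans 119108711 to 119137983 on mm10 chromosome 4 (plus strand).

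Aldoa splits fructose 1,6-bisphosphate into triose phosphates. The FPKM of Aldoa was 648, 676 and 630.0 in the controls, against 665 in knockout 0 and 546 in knockout 1. Knockout 0 lay within the controls and knockout 1 below them (log2 fold change -0.11, SE 0.113, 95% interval -0.40 to 0.17, limma adjusted p = 0.557). Aldoa (ENSMUSG00000030695.16) spans 126795234 to 126800751 on mm10 chromosome 7 (minus strand), and GENCODE M21 has 2 records with this symbol. Of its 50-base transcript windows 13.5% occur in other genes, among them the retrogene Aldoart1.

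Pkm encodes the pyruvate kinases M1 and M2, made by alternative splicing, and the gene-level value cannot separate them. Its FPKM was 147, 143 and 144 in the controls, against 117 in knockout 0 and 152 in knockout 1. The controls differed by little, with a coefficient of variation of 1.23%, and the knockout libraries lay on either side of them. The fitted difference was -0.12 on the log2 scale (SE 0.124, 95% interval from -0.43 to 0.19, limma adjusted p = 0.576), and after quantile normalization it was 0.035. Pkm (ENSMUSG00000032294.17) spans 59656368 to 59679375 on chromosome 9 (plus strand), and shares 34.4% of its 50-base windows with other genes, most with the gene model Gm6560. Pklr, the liver and red cell pyruvate kinase, was at 11.4, 18.6 and 14.5 in the controls, against 20.4 and 20.2 in knockout 0 and 1 (limma adjusted p = 0.189). Pkm made up 88.5% to 92.8% of the pyruvate kinase FPKM in the controls, against 85.2% in knockout 0 and 88.3% in knockout 1.

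Ldha, the muscle-type subunit that favours lactate production, was below every control in both knockout libraries but did not pass. Its FPKM was 551, 496 and 516 in the controls, against 486 in knockout 0 and 373 in knockout 1. Knockout 0 was just under the lowest control and knockout 1 well under it. The fitted difference was -0.29 on the log2 scale (SE 0.136, 95% interval from -0.63 to 0.05, limma adjusted p = 0.226). By exact permutation p was 0.1. Over all 15 alternatives the log2 difference stayed negative, from -0.48 to -0.10, with an adjusted p of 0.0562 to 0.504.

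Ldha values were not higher in the knockout libraries. The upstream promoter window of Ldha is printed because, with both strands counted, it held the most matches to the hypoxia cores among the 18 windows. It is chr7:46845554-46845853, plus strand, marked as above.
Ldha: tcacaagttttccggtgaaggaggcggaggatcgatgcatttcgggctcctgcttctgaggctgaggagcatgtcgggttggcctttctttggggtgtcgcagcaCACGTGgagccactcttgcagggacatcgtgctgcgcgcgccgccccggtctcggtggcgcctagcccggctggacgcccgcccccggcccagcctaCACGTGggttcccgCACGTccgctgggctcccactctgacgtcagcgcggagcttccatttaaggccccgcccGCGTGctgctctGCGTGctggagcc
It held ACGTG 5 times and GCGTG 2 times over both strands. It held CACGTG, the E-box, 2 times, against 7.15% of all windows with at least 1, and each CACGTG counts as an ACGTG match on both strands. The second window of Hk1 held 5 matches, so the lead of the Ldha window rests on this way of counting.

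Ldhb, the heart-type subunit that favours use of lactate, had the highest FPKM of the members. Its FPKM was 1131, 1196 and 1053 in the controls, against 1050.2 in knockout 0 and 984 in knockout 1. Knockout 0 lay just under the lowest control, and knockout 1 was lower. The fitted difference was -0.15 on the log2 scale (SE 0.0993, 95% interval from -0.40 to 0.10, limma adjusted p = 0.376). Ldha made up 32.7%, 29.3% and 32.9% of the summed lactate dehydrogenase FPKM in the controls, against 31.6% in knockout 0 and 27.5% in knockout 1. Ldha (ENSMUSG00000063229.15) spans 46841475 to 46855627 on mm10 chromosome 7 (plus strand), and Ldhb (ENSMUSG00000030246.11) 142490249 to 142507957 on chromosome 6 (minus strand). Of their 50-base windows 16.6% and 27.0% occur in other genes, mostly unnamed gene models such as Gm5452 and Gm5514.

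Ratios of isoenzymes within a library do not depend on how that library was scaled, and 6 pairs were compared. With 10 regroupings of the libraries the smallest exact two-sided permutation p is 0.1, so no pair could pass 0.05. The ratio of Pfkp to Pfkm was 0.643, 0.578 and 0.59 in the controls, against 1.29 in knockout 0 and 0.739 in knockout 1, a log2 difference of 0.70 (exact permutation p = 0.1, adjusted over the 6 pairs 0.2). That of Pfkp to Pfkl was 0.735, 0.68 and 0.688, then 1.25 and 0.826, a log2 difference of 0.53 with the same exact permutation p values. Pfkl to Pfkm was 0.875, 0.851 and 0.858, then 1.04 and 0.895 (log2 difference 0.16, again exact p = 0.1). In all 3 phosphofructokinase pairs the groups did not overlap, and knockout 0 was farther from the controls than knockout 1. Since the 3 pairs share genes, they are not independent of each other.

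The other pairs gave no such separation, or a narrow one. Ldha to Ldhb was 0.487, 0.414 and 0.49 in the controls, against 0.463 in knockout 0 and 0.379 in knockout 1 (log2 difference -0.14, exact permutation p = 0.5). Hk2 to Hk1 was 0.0106, 0.00838 and 0.00955, then 0.0282 and 0.00705, so that knockout 0 was above and knockout 1 below the controls (log2 difference 0.58, exact permutation p = 0.7). Pkm to Pklr was 12.8, 7.71 and 9.94, then 5.74 and 7.52, lower than each control in both knockout libraries (log2 difference -0.60, exact permutation p = 0.2).

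**Figure D4:**
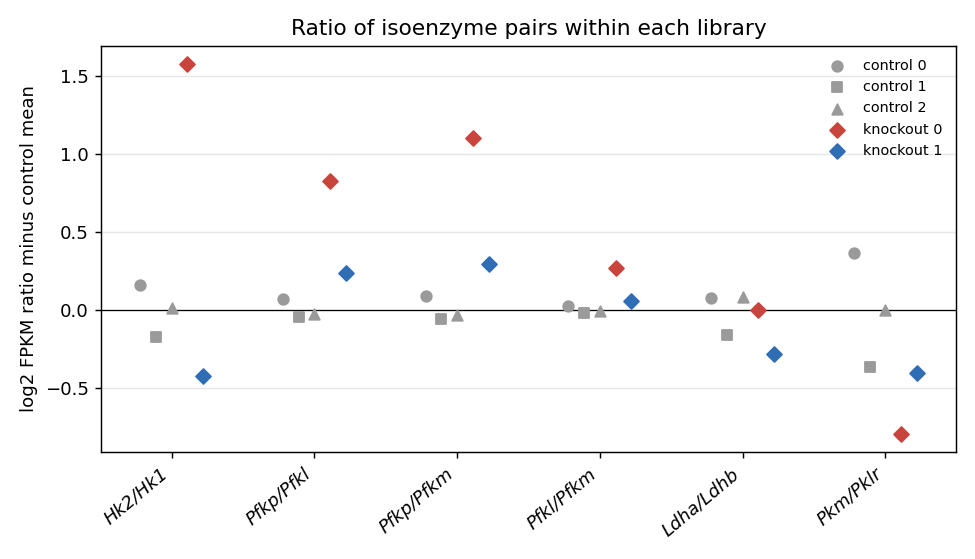
Log2 FPKM ratio of 6 isoenzyme pairs in each library, less the control mean (grey, controls; red, knockout 0; blue, knockout 1). The 3 phosphofructokinase pairs lie above the controls in both knockout libraries, and Hk2/Hk1 lies on both sides of them.

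The other genes of glycolysis and its neighbouring routes were taken from 8 lists of 114 genes, of which 100 were tested. Of these, 4 were called higher, 8 lower and 88 did not pass (limma), 12.0% against 6.34% of all tested rows. The 4 include Gapdh and Hkdc1, whose calls are limited as described below, and with rows holding a 0 left out 3 were called higher and 10 lower. All 8 lists were chosen with earlier results of these data known, so the distance of a list from all tested rows supports nothing. Of 16 tested enzymes and regulators of glycolysis other than the members, 2 passed, both higher, with a median log2 difference of -0.01. They were Gapdh, listed at 0 in the 3 controls and at 1073 and 854 in knockout 0 and 1, from which no direction is drawn, and Hkdc1. Hkdc1 rose from 0.740 ± 0.0573 (SD, n = 3) to 1.81 and 1.65 (log2 0.65, limma adjusted p = 0.0372). Its controls were all below the filter of a mean FPKM of 1, so it entered the test only through the knockout libraries, and this call supports nothing. Among the enzymes that did not pass, Pgk1, phosphoglycerate kinase, was at 411, 409 and 420.0 in the controls, against 405 and 421 in knockout 0 and 1. Tpi1, triose phosphate isomerase, was at 500.3, 493 and 473, then 433 and 368, and Pgam2, a phosphoglycerate mutase, at 78.2, 90.6 and 78.1, then 47.1 and 59.2 (limma adjusted p = 0.137 and 0.0533). Of 12 tested sugar and lactate transporters 0 passed by limma, with 1 higher and 1 lower at an unadjusted p under 0.05, which 29.1% of all tested rows had. Slc16a1, the monocarboxylate transporter MCT1, was at 18.4 ± 1.65 (SD, n = 3) in the controls, against 24.4 and 24.5 in the knockout libraries (limma adjusted p = 0.0655), and Slc2a9, a urate transporter, at 4.65 ± 0.375, 2.87 and 3.43 (0.0646). Slc5a1, the sodium-glucose transporter SGLT1, was at 28.9 ± 0.816, 31.1 and 35.2, and Slc2a4, the insulin-responsive GLUT4, at 13.2 ± 0.561, 6.83 and 13.0 (limma adjusted p = 0.192 and 0.286).

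Some of the genes that carry pyruvate into mitochondria and use it there fell. Of 15 tested members 3 fell, 0 rose and 12 did not pass (limma), 13 had a negative log2 fold change, and the median was -0.33, against -0.02 over all tested rows. Of all tested rows 3.62% were called lower and 2.73% higher. Pcx, pyruvate carboxylase, fell from 165 ± 1.30 (SD, n = 3) to 87.1 and 96.1 in knockout 0 and 1 (log2 -0.84, SE 0.0773, limma adjusted p = 0.0122). Pdha1, the catalytic alpha subunit of pyruvate dehydrogenase, fell from 252 ± 16.0 to 158 and 169 (log2 -0.62, adjusted p = 0.0278). Mpc1, a subunit of the mitochondrial pyruvate carrier, fell from 473 ± 23.9 to 339 and 325 (log2 -0.51, adjusted p = 0.0374). Its partner Mpc2 was at 473 ± 22.2, 292 and 357 (adjusted p = 0.0552). The kinases Pdk1 to Pdk4, which switch pyruvate dehydrogenase off, had log2 fold changes of -0.36, -0.18, -0.30 and -0.00, and none passed. Pdp1 and Pdp2, phosphatases that switch pyruvate dehydrogenase back on, had the only positive values, 0.14 and 0.12, and neither passed. The count of negative values and the median thus mix genes of opposite action. Without control 0 and without control 2 none of the 3 calls was kept, without control 1 only Pcx, and after quantile normalization again only Pcx. The 6 proximal tubule markers above 0 summed to 1266 to 1613 in the controls, against 954 in knockout 0 and 810 in knockout 1, and their part in these values was not tested. Slc7a13, an amino acid transporter, made much of that gap, at 631, 306 and 524 in the controls, against 175 and 1.83. Without it the sums were 931 to 982 in the controls, against 780 and 808, and Cubn, an endocytic receptor, was at 50.9 and 61.1, above every control.

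**Figure D5:**
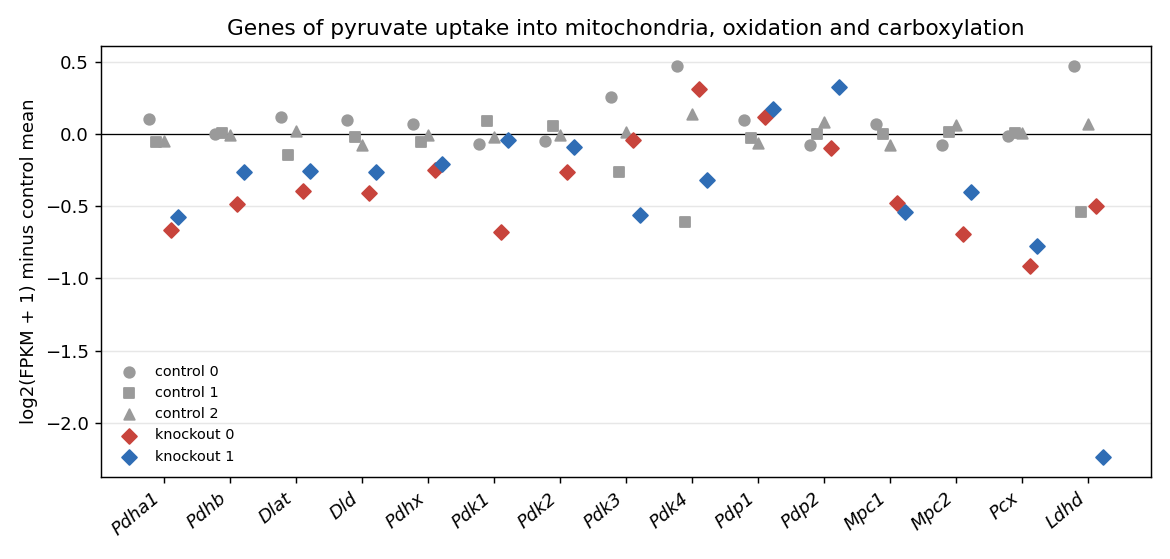
Difference of log2(FPKM + 1) from the control mean for 15 genes of pyruvate transport and use (grey, controls; red, knockout 0; blue, knockout 1). Both knockout libraries lie below all 3 controls in 9 of the 15 genes, Pcx, Pdha1 and Mpc1 among them, and in 26.3% of all tested rows.

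Of 7 tested genes of gluconeogenesis 1 rose, 1 fell and 5 did not pass (limma), with a median log2 difference of -0.30. Over all tested rows 2.73% were called higher and 3.62% lower, and the median was -0.02. Fbp2, the muscle-type fructose bisphosphatase, rose from 11.2 ± 3.87 (SD, n = 3) to 42.2 and 36.2 in the knockout libraries (log2 1.77, SE 0.267, limma adjusted p = 0.0307). Slc37a4, which carries glucose 6-phosphate into the endoplasmic reticulum, fell from 163 ± 2.08 to 101 and 102 (log2 -0.68, adjusted p = 0.0147). G6pc3, a widely expressed glucose 6-phosphatase, was at 39.4, 37.4 and 40.9, then 30.9 and 29.9 (limma adjusted p = 0.0501). Fbp1, the main kidney form, was at 923 ± 57.4, 769 and 734 (adjusted p = 0.12), and Pck1, which makes phosphoenolpyruvate, at 779, 751 and 761 in the controls, against 847 and 823 in the knockout libraries. Of 17 tested genes of side branches 1 rose and 2 fell, beside the same shares over all tested rows. Phgdh, which diverts 3-phosphoglycerate to serine, rose from 9.97 ± 1.72 to 25.3 and 17.9 (log2 1.04, limma adjusted p = 0.0443). Taldo1, a transaldolase of the pentose phosphate pathway, and Gpd1, glycerol 3-phosphate dehydrogenase, fell from 235 ± 5.05 to 182 and 161 and from 180.3 ± 2.91 to 141 and 139.9 (adjusted p = 0.0461 and 0.0471). Rpe, ribulose phosphate epimerase, was at 19.6, 17.3 and 16.9, then 14.5 and 14.0 (adjusted p = 0.0907). Without control 0 or control 2, Gapdh was the only one of the 12 pathway calls to be kept, and rescaled to a common sum of FPKM 5 of the pathway genes fell in place of 8.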

How the data were processed

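Whole-kidney RNA was extracted with TRIzol and made into libraries with an Illumina mRNA-seq kit, per the labels' protocols. The authors deposited FPKM per gene symbol in 1 column for each library. The submitters' processing notes name bcl2fastq and mm10. For the aligner, the FPKM program, the annotation and the strandedness, the sources used here give nothing.

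Because FPKM are not counts, rows averaging an FPKM of 1 or more were tested as log2(FPKM + 1), a scale that understates changes of low genes. The test was limma 3.58.1 in R 4.3.3 (variance trend, two-sided, Benjamini-Hochberg over all tested rows, threshold 0.05), checked on simulated data. All adjusted p-values are from limma unless named otherwise. Isoenzyme ratios used no pseudocount and an exact permutation test in Python 3.11.15. Positions come from GENCODE M21 and promoters from RefSeq. Of the listed pathway symbols 1 (Tigar) was not matched.

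Named genes are all members, passing list genes or up to 4 per list by adjusted p, the 3 nearest patterns of the members with the 2 smallest adjusted p, pair partners and check genes. Pgk1, Pck1, the Pdk and Pdp genes, Hif1a, Myc, Vegfa, Ptbp1 and Pitrm1 were named after their values were seen. The members, lists and pairs were chosen with earlier results of these data known. All value columns were matched to a library (0 unmapped). Some genes of these lists are not reported here.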

Additional observations from a re-analysis of the deposited data

How the results depend on the processing

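Of the 9 tested members, those other than Pfkp and Pfkm kept their side of the threshold under each of the 15 alternatives run on them. Pfkp did not pass with no filter (log2 0.51, limma adjusted p = 0.106), after median-of-ratios scaling (0.51, 0.0516) or with the replicate number as a block (0.49, 0.251), and leaving out 1 library gave 0.39 to 0.62. Leave-one-out ranges of the log2 difference were -0.024 to 0.43 for Hk1, -0.16 to 0.17 for Pfkl, -0.42 to 0.12 for Pfkm, -0.25 to 0.029 for Aldoa, -0.30 to 0.071 for Pkm and -0.25 to 0.31 for Slc2a1. They were -0.48 to -0.10 for Ldha and -0.19 to -0.10 for Ldhb. With the block Pfkl was at -0.00023, and Pkm was at 0.035 after quantile normalization. The Hk2/Hk1 log2 ratio, 0.58, was 0.045 with a pseudocount of 1. It ranged from -0.42 to 1.58 and that of Ldha/Ldhb from -0.29 to 0.00082 when 1 library was left out.

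The 802 calls over all rows (345 higher, 457 lower) became 247 with no filter, 28 with the replicate block and 193 at 2-fold or more. Rescaled to TPM they were 720, 454 higher and 266 lower. Leaving out 1 library gave 38 (without control 0 or 2) to 2606 (without knockout 1), and with rows listed at 0 left out as well 0 to 3020 (139 without control 1, 1657 without knockout 0). The 0 calls, without control 0 and without control 2, had 2390 and 2150 rows at an unadjusted p under 0.05. Pathway genes called, 4 higher and 8 lower, were 4 and 5 after rescaling to TPM, 3 and 4 after quantile normalization, 2 and 3 with no filter, 1 and 0 with the block, 3 and 12 at a mean FPKM of at least 5, 1 and 0 without control 0 or 2, 2 and 1 without control 1, and 7 and 21 without knockout 1. The cause of these shifts was not tested. The replicate numbers are shared by the groups without a stated pairing, and deviations of same-numbered libraries correlated at 0.0863 and 0.00236. Depth per library is known only relatively, which bears on low values such as those of Hk2, at roughly 164 to 391 steps in each library.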

Other observations

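None of the tested regulators of glycolysis and of the tested genes known to respond to hypoxia was called higher. Over all tested rows 2.73% were called higher and 3.62% lower, so counts of 0 or 1 in these short lists are close to the background. Of 19 tested regulators 0 rose, 1 fell and 18 did not pass (limma), with a median log2 difference of -0.07, against -0.02 over all tested rows. Mlxipl, the glucose-sensing transcription factor ChREBP, fell from 67.2 ± 3.24 (SD, n = 3) to 49.8 and 50.9 in knockout 0 and 1 (log2 -0.41, limma adjusted p = 0.0419). Hif1a, a hypoxia-inducible factor subunit, was at 33.9, 30.7 and 28.9 in the controls, against 28.0 and 31.1 in the knockout libraries. Epas1, which encodes HIF-2 alpha, was at 24.9 ± 0.335, 29.4 and 34.1 (adjusted p = 0.0762), and Esrra, a regulator of mitochondrial genes, at 75.6 ± 3.14, 53.9 and 61.1 (0.0616). Egln2, a prolyl hydroxylase that marks HIF for degradation, was at 33.5 ± 2.33, 24.5 and 26.9 (0.0716). Myc had control values of 7.49, 3.04 and 6.08, against 11.2 (knockout 0) and 5.71 (knockout 1).

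Of 13 tested hypoxia-responsive genes 0 rose, 1 fell and 12 did not pass (limma), beside 2.73% of all tested rows called higher and 3.62% lower. Car9, carbonic anhydrase IX, fell from 9.63 ± 0.852 (SD, n = 3) to 4.20 and 2.06 (log2 -1.41, limma adjusted p = 0.0359), and it was not called without control 0, 1 or 2 (0.15, 0.0922 and 0.174). Vegfa, the vascular growth factor gene, was at 118, 119 and 124 in the controls, against 77.8 in knockout 0 and 116 in knockout 1, and Bnip3, a mitophagy receptor, at 107 ± 6.13, 83.6 and 85.3 (adjusted p = 0.0684). Ankrd37 was at 1.67 ± 0.110, 1.22 and 1.11, and P4ha1, a prolyl hydroxylase of collagen, at 19.5 ± 1.75, 22.9 and 23.2 (limma adjusted p = 0.132 and 0.159). Of 5 tested splicing factors linked to Pkm none passed, where 6.34% of all tested rows did. Rbm4 was at 8.51 ± 0.196, 6.08 and 6.77 (adjusted p = 0.0531), Nek2 at 2.58 ± 0.347, 5.12 and 2.10 and Srsf3 at 60.3 ± 0.722, 59.3 and 56.6 (limma adjusted p = 0.557 and 0.622). Hnrnpa1 was at 40.5, 47.6 and 52.5 in the controls, against 48.3 and 41.4 in the knockout libraries, and Ptbp1 was listed at 0 in all 5 libraries.

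The rows closest in pattern to Ldha, by the same distance as for Pfkp, were Adamtsl2, Med28 and Slc30a5 (0.0348, 0.0382 and 0.0547). Med28, a Mediator subunit, was at 29.5, 26.9 and 28.5 in the controls, against 26.8 and 20.1 in knockout 0 and 1. Markers of skeletal muscle, a tissue rich in Pfkm and Aldoa, summed over all 6 listed genes to an FPKM of 1.38 to 1.65 in the controls, against 1.998 in knockout 0 and 1.69 in knockout 1, most of it Mylpf. Myh1, a fast myosin, was at 0.00397, 0 and 0.00147 in the controls, against 0.318 and 0.272. Tnnt3, a troponin, went the other way, at 0.0554, 0.0761 and 0.0522 in the controls, against 0.0242 and 0.0316. Acta1, Myh4, Ckm and Mylpf overlapped between the groups. Erythroid markers, from cells that depend on glycolysis, summed to 19.4 to 45.5 in the controls, against 132 in knockout 0 and 8.33 in knockout 1, and their part in the member values was not tested.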
